A study of Mus musculus with 6 samples.

Results

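Cytosolic ribosomal protein genes were followed in RNA-seq libraries of the mouse cerebellum. They were taken from the gene symbols alone, as the symbols that begin with Rpl or Rps followed by a number, with a few allowed end letters, together with Rplp0, Rplp1, Rplp2 and Rpsa. The rule found 78 genes among the 24421 of the count tables, of which 46 have symbols of large subunit proteins and 32 of small subunit proteins. It leaves out Rps3a1 and the ubiquitin-like fusion Fau, and it takes Rps27l, a paralogue of Rps27, and Rps4l, which GENCODE M21 annotates as a transcribed processed pseudogene. The 2 groups were 3 STIM1 knockout (KO) mice and 3 wild type (WT) mice, all 1 year old, and the tissue was microdissected cerebellum, with the layer of Purkinje neurons and the molecular layer pooled. STIM1 is the sensor of calcium in the endoplasmic reticulum that opens store-operated calcium entry. The labels name neither the cells in which Stim1 was removed nor the promoter or exons involved, and each library is described as a biological replicate.

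Ribosomal proteins assemble with ribosomal RNA into a small subunit, which decodes the mRNA, and a large subunit, which forms peptide bonds. Each protein is needed in about equal number in a ribosome, and many of the mRNAs start with a tract of pyrimidines, through which growth signalling by mTOR regulates their translation. In mammals most of these genes have processed pseudogenes, copies of the spliced mRNA put back into the genome, so that a short read from one of them often matches several places.

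The sequences below are coding stretches that lie opposite an exon of another annotated gene, where the strand of a read decides which gene it belongs to. They are shown for Rpl23a, the member with the most counts, and for Rpl35, the member that shares the largest part of its exons. They come from the GENCODE M21 transcripts on GRCm38 and are printed in the direction of the ribosomal protein mRNA. Capitals mark the bases shared with an exon of Tlcd1 in the first and of Wdr38 in the second.
Rpl23a (exon 3, chr11:78181474-78181593, minus strand): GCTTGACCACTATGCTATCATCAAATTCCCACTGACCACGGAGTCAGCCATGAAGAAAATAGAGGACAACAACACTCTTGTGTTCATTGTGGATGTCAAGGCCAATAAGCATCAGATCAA
Rpl35 (exon 4, chr2:39001619-39001720, minus strand): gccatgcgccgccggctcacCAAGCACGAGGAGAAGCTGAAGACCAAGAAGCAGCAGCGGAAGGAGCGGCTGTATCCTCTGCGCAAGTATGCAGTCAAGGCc
All 120 bases of the Rpl23a stretch were shared, against 81 of 102 in Rpl35.

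Windows around the annotated starts were searched for runs of pyrimidines, which could lie anywhere in the window and not only at the mRNA start. Each window runs from 20 bases before to 30 bases after a RefSeq start on GRCm38.p6, in the direction of the gene, and capitals mark a run of 8 or more pyrimidines (C or T in any order). The windows below belong to members of high count, to Rpl11, and to Rpl9 as a member with no such run. In Rpl5 and Rps25 the marked run lies wholly before the RefSeq start, and in Rpl11 and Rpl13a it begins after it.
Rpl27a (chr7:109519175-109519224, plus strand): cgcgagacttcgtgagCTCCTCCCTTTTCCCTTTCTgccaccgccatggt
Rpl7a (chr2:26910787-26910836, plus strand): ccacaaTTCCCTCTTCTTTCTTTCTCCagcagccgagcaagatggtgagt
Rpl13a (chr7:45128716-45128765, minus strand): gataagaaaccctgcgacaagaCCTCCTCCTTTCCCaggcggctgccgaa
Rps25 (chr9:44407694-44407743, plus strand): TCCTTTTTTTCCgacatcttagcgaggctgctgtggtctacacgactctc
Rpl5 (chr5:107900508-107900557, plus strand): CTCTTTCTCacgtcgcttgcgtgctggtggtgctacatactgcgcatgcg
Rpl11 (chr4:136053364-136053413, minus strand): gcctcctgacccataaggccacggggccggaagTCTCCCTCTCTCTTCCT
Rpl9 (chr5:65391402-65391451, minus strand): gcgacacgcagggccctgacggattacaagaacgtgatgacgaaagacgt
Of the 78 members, 57 were matched in the promoter table, and 33 of these (57.9%) had a run in at least one window. A run was found in 21.5% of all 27025 genes with a promoter window. On the opposite strand the share was 10.5% of the members and 24.7% of all genes. By subunit, 61.8% of the matched large subunit genes and 52.2% of the matched small subunit genes had a run on their own strand. A run is a description of these letters and no proof that translation is regulated through it. Rpl23a was among the 21 members not matched.

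The libraries held 645994 to 764839 counts in genes, which was 1.16% to 1.23% of the uniquely aligned reads. One count was worth 1.27 to 1.59 CPM (counts scaled to a common library total of gene counts, after TMM scaling). Stim1 had 4, 3 and 2 counts in the KO libraries and 7, 21 and 3 in the WT libraries, too few to be tested, and the groups overlapped. Counts of Y-linked genes were found in KO replicate 3 and WT replicate 3 and in no other library. The Purkinje cell markers Calb1, a calcium buffer, and Pcp2 were detected in every library. Calb1 averaged 307 ± 76.3 CPM in KO and 327 ± 39.3 CPM in WT (SD, n = 3 each). Pcp2 averaged 97.0 ± 12.4 CPM in KO and 81.6 ± 13.3 CPM in WT (SD, n = 3 each), the other direction. Of the 1828 exonic bases of Pcp2, 941 are shared with a gene on the other strand. As the counting strand is not given, the Pcp2 counts may hold reads of that gene. Summed markers of molecular layer interneurons lay at 405 to 476 CPM in KO and 535 to 577 CPM in WT. Those of Bergmann glia and astrocytes lay at 438 to 627 CPM in KO and 678 to 784 CPM in WT. Within these lists only Pvalb (interneurons) and S100b (glia) had all KO libraries below all WT libraries. Pvalb averaged 119 CPM in KO and 196 CPM in WT, and S100b 133 CPM in KO and 222 CPM in WT. In each of the other interneuron and glial markers the groups overlapped. Purkinje markers summed to 1852 to 2475 CPM in KO and 2457 to 3085 CPM in WT. Oligodendrocyte markers summed to 91.2 to 125 CPM in KO and 104 to 121 CPM in WT, granule cell markers to 119 to 170 CPM in KO and 134 to 187 CPM in WT, and 4 of the 5 erythrocyte genes were at 0 in all libraries. Microglial markers summed to 1.59 to 21.5 CPM in KO and 11.3 to 46.2 CPM in WT, and those of endothelium and choroid plexus stayed at or below 20.2 CPM in every library. Negative log2 fold changes (KO over WT) were found in 5 of 7 tested Purkinje markers, 6 of 6 interneuron markers and 5 of 7 glial markers. They were also found in 3 of 4 granule cell markers and 2 of 3 oligodendrocyte markers, with 0 called by edgeR in any list. Of all 5320 genes tested, 2646 had a negative value. In such bulk samples fewer cells of a type and less RNA per cell cannot be told apart, and the part of these markers in the results on ribosomal protein genes was not tested.

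The ribosomal protein genes together received 2141, 1647 and 1495 counts in KO libraries and 1624, 1663 and 1743 counts in WT libraries. That was 0.249% ± 0.0278 of the gene counts in KO and 0.250% ± 0.00253 in WT (SD, n = 3 each). KO replicate 1 had the highest share and KO replicate 3 the lowest, so the WT libraries lay inside the KO range. Most members had few counts. Since neither the strandedness of the kit nor the counting strand is given, a count may hold reads of the other strand, and a low count need not mean low expression of the gene. That was not tested. Over all 6 libraries 40 of the 78 had a mean count under 10, 32 had 10 to 50, and 6 had 50 or more, and the median of the mean counts was 8.58. Rpl26 and Rpl30 had no count in any library, and 12 members, these included, had 0 in at least one. By counting error alone, a listed 0 allows for as many as 3 counts, which is 3.92 to 4.64 CPM in the different libraries before TMM scaling.

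Counts were concentrated in a pair of large subunit genes. Rpl23a, whose protein sits at the mouth of the tunnel through which the new peptide leaves the ribosome, had 323, 309 and 224 counts in KO libraries and 221, 313 and 256 in WT libraries. Rpl5, whose protein binds the small 5S ribosomal RNA, had 285, 282 and 202 counts in KO libraries and 228, 212 and 215 in WT libraries. They held 16% and 13.8% of all member counts and were the only members with a mean count of 100 or more. Their joint share of the member counts was 30.9% ± 4.29 in KO and 28.8% ± 2.47 in WT (SD, n = 3 each), and the groups overlapped. Among all genes they ranked 431 and 496 by mean CPM over the 6 libraries.

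Rps25, a small subunit protein used in initiation at internal ribosome entry sites, averaged 100.2 ± 24 CPM in KO and 92.2 ± 16.3 CPM in WT (SD, n = 3 each). Rpl27a and Rpl13a followed in the order of counts. Rpl13a, which in human monocytes is released from the ribosome after interferon treatment, had 97.5, 100.2 and 35.0 CPM in KO libraries and 70.1, 63.5 and 64.8 CPM in WT libraries. KO replicate 3 lay below all the WT libraries, and the other KO libraries lay above them. Rpl13a lies at chr7:45125558-45128761 on the minus strand. The members lay on 19 chromosomes, with 14 of them on chromosome 7.

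The proteins of the stalk that recruits elongation factors to the large subunit were among the low members. Rplp0 had 7, 5 and 6 counts in KO libraries and 4, 4 and 3 in WT libraries. Rplp1 had 2, 1 and 2 counts in KO libraries and 1, 2 and 1 in WT libraries, and Rplp2 had 0, 0 and 1 in KO libraries and 2, 2 and 1 in WT libraries. Rpsa, a small subunit protein also described as a laminin receptor, had 10, 3 and 1 counts in KO libraries and 9, 9 and 4 in WT libraries. None of these genes had enough counts for the test. Of the paralogues, Rps27l had 14, 5 and 5 counts in KO libraries and 3, 1 and 7 in WT libraries, and Rps4l had 0, 0 and 2 in KO libraries and 0, 2 and 2 in WT libraries.

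Per kilobase of annotated exon, the level of Rpl23a over all libraries was 470 CPM and that of Rpl5 87.9 CPM. Rpl36 and Rpl29 had 71.3 and 62.8 CPM per kilobase. The median over the 78 members was 6.71 CPM per kilobase, and that over all 23376 genes matched to the annotation was 0.459 CPM per kilobase. Among genes that passed the filter on low counts the medians were 20 CPM per kilobase for members and 9.18 CPM per kilobase for all genes.

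**Figure D1:**
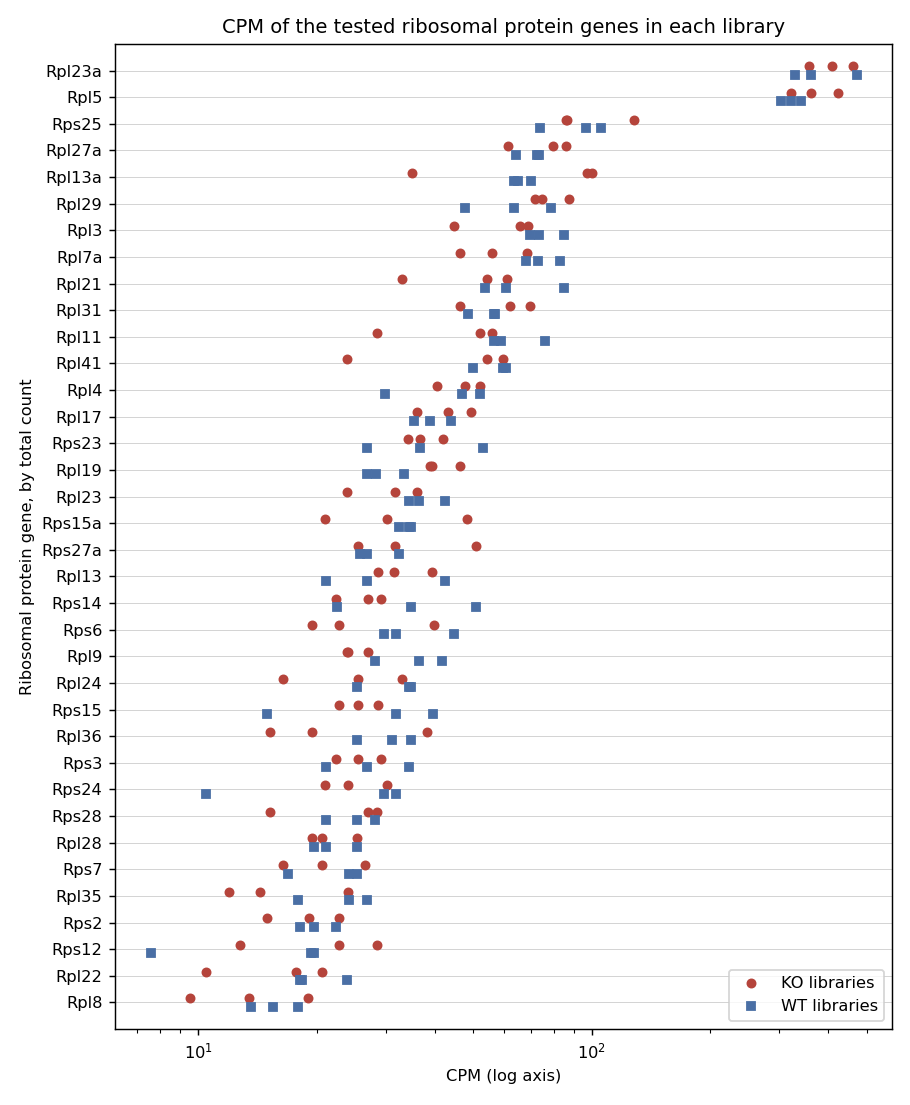
CPM (log axis) of 36 ribosomal protein genes that passed the filter on low counts, 1 row per gene ordered by total count, with KO libraries as circles and WT libraries as squares (3 each). Rpl23a and Rpl5 stand above 300 CPM in all 6 libraries, and Rps25, the next gene drawn, reaches 127.8 CPM.

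Genes on the opposite strand bear on these levels, because the strand setting used in counting is not given in the sources used here. At least 50 bases of exon were shared with a gene of the other strand by 17 of the 78 members (21.8%), against 22.2% of all matched genes (5187 of 23376). These members held 50.2% ± 3.75 of the member counts in KO and 45.7% ± 1.58 in WT (SD, n = 3 each), with overlapping groups, or 48.0% over all libraries. For all matched genes the share of counts in genes with such a partner was 75% ± 1.43 in KO and 73.8% ± 1.74 in WT (SD, n = 3 each). The median level was 11.9 CPM per kilobase in members with a partner and 6.25 CPM per kilobase in members without one. For all matched genes it was 2.22 CPM per kilobase with a partner and 0.256 CPM per kilobase without.

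The 17 members form 19 such pairs, and in 15 of them, over 13 members, the partner was in the count tables. The partner had more counts in 9 pairs and the ribosomal protein gene in 6. In 4 pairs the partner had over 10 times the counts of the member. Rpl15 had a mean of 6.17 counts and Nkiras1, an inhibitor of NF-kappa-B signalling that shares 105 bases with it, had 3179. In all, Nkiras1 shares 823 bases with genes of the other strand, the larger part of them with Ube2e1. Rpl18 had 5.17 counts and Sphk2, a sphingosine kinase that shares 373 bases, had 1799. Sphk2 shares 912 bases in all with genes of the other strand, the larger part of them with Dbp. Whether the counts of Nkiras1 and Sphk2 hold reads of any of these genes was not tested. Rpl32 had 7.33 counts and Cand2, which shares 53 bases, had 521. Rpl35 had 13.8 counts and Wdr38, which shares 821 of its 1241 exonic bases, had 152.5. Each of these 4 members was low, and only Rpl35 among them passed the filter.

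Both members of high count had a partner, with opposite outcomes. Rpl5 shares 953 bases with Fam69a, which had 1119, 988 and 927 counts in KO libraries and 908, 969 and 1195 in WT libraries, a mean of 4.29 times the Rpl5 count. Rpl23a shares 506 of its 847 exonic bases with Tlcd1, which had 2, 2 and 1 counts in KO libraries and 0, 1 and 1 in WT libraries. Rps25 had more counts than Trappc4, a vesicle tethering subunit (a mean of 2 counts), and fewer than Ccdc84 (118.8 counts). Reads of such pairs cannot be told apart without the strand. None of the partners tested passed the threshold between the genotypes in edgeR's quasi-likelihood test, and Fam69a had a log2 fold change (KO over WT) of -0.05 with an SE of 0.13 (Benjamini-Hochberg adjusted p = 0.997).

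**Figure D2:**
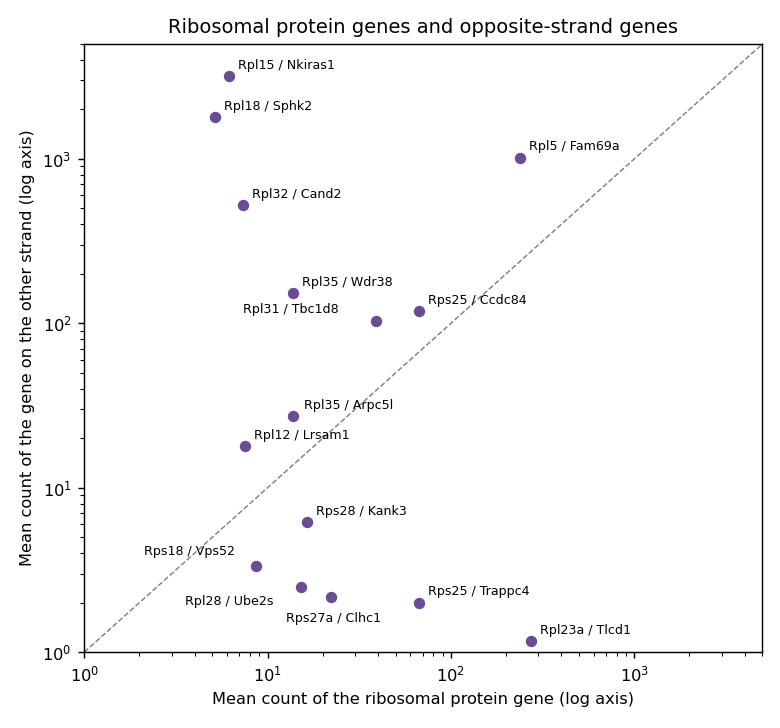
Mean count over the 6 libraries of each ribosomal protein gene (horizontal, log axis) and of the gene on the other strand that shares at least 50 bases of exon (vertical, log axis), for the 15 pairs in the count tables. Points above the dashed line of equal counts (9 pairs) are those in which the partner had more counts, and Rpl15, Rpl18 and Rpl32 lie farthest above it.

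Sequence shared with other loci was measured by cutting the principal transcript of each member into all words of 50 bases, the read length, and looking for each word in annotated transcripts of other genes. The median member had 43.6% of its words elsewhere, and in 30 of the 78 members it was over 50%. The highest share was 98.6% in Rps27, which had a mean of 0.833 counts. For Rpl23a the share was 82.6%, spread over 28 other genes, and for Rpl5 48.5%. Rpl7a, a large subunit protein, shared words with 123 other genes, the most of any member. Of the 1384 pairs of a member and another gene that share a word, 1087 involved an annotated pseudogene. Across the 78 genes, which share libraries and are not independent, the share of such words and the level per kilobase had a Spearman correlation of 0.094, given as a description. Members that passed the filter had a median of 44.8% and the others 41.7%. Per library 15484582 to 18383204 alignments were left out of the counts as not unique, and how many fell on these genes is not recorded in the tables, so the level of each member with shared words is uncertain.

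**Figure D3:**
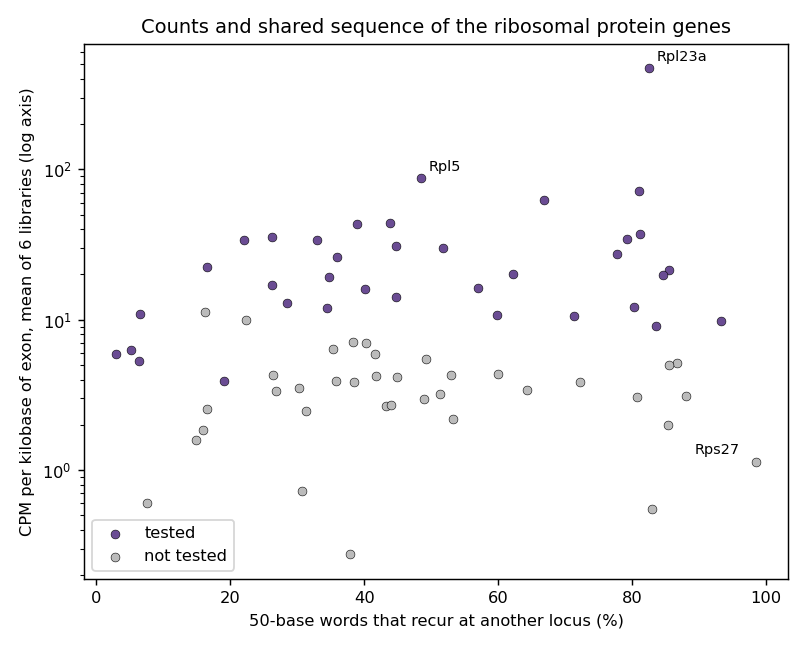
Share of 50-base words of the transcripts of 73 members that recur in the annotated transcript of another gene (horizontal, %) and mean CPM per kilobase of exon over the 6 libraries (vertical, log axis), with tested members in violet and the others in grey (Rpl26 and Rpl30, at 0, are not drawn). Rpl23a combines the highest level with a share of 82.6%, and the points show no clear order.

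Between the genotypes no ribosomal protein gene passed an adjusted p under 0.05. The filter left 38 of the 78 members (23 large and 15 small subunit genes) among 5320 genes tested, and edgeR's quasi-likelihood test with Benjamini-Hochberg adjustment over all of them called 0 members, beside 0% of all genes tested. At an unadjusted p under 0.05 there was 1 member of 38 (2.63%), against 4.62% of all genes tested. Without KO replicate 3 there were 6 of 40 members, against 5.01% of all genes. Without KO replicate 1 there were 0, against 4.92% of all genes, and without WT replicate 1 also 0, against 3.67%. DESeq2 and limma-voom also called 0 members and 0 of all genes tested. At an unadjusted p under 0.05 DESeq2 had 1 of 76 members (1.32%), against 0.653% of all genes it tested. Limma-voom had 1 of 38 members (2.63%), against 4.4% of all genes tested. The log2 fold change, KO over WT, was above 0 in 15 members and below 0 in 23. Its median was -0.06 in the members and 0.00 in all genes tested. The members' median and split depended on single libraries: without KO replicate 1 the median was -0.126, with 14 members above 0 and 28 below, and without KO replicate 2 it was 0.003, with 21 members on each side. The SE of a single member was 0.14 to 0.41.

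In CPM the groups did not overlap in 5 of the 38 tested members (13.2%), against 10.7% of all genes tested. Among them, KO libraries were higher in Rpl19 (for all genes, 4.83% had KO above WT) and lower in Rpl3, Rpl11 and Rpl9 (for all genes, 5.85% had KO below WT). Rpl19, a large subunit protein whose tail reaches across to the small subunit, had 39.2, 38.9 and 46.1 CPM in KO libraries and 28.3, 33.2 and 26.8 CPM in WT libraries. Rpl3, which lies next to the centre where peptide bonds form, had 65.8, 68.8 and 44.5 CPM in KO libraries and 84.9, 69.5 and 73.3 CPM in WT libraries. KO replicate 3 stood below the other KO libraries, and KO replicate 2 nearly reached the lowest WT library.

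Rpl11 joins Rpl5 on the 5S ribosomal RNA, and the complex also binds the p53 regulator Mdm2. It had 51.9, 28.4 and 55.7 CPM in KO libraries and 76, 58.9 and 56.4 CPM in WT libraries, with a log2 fold change of -0.49 and an SE of 0.27. Rpl5, its partner on that RNA, averaged 368 ± 50.6 CPM in KO and 321 ± 18.4 CPM in WT (SD, n = 3 each), and its log2 fold change was 0.19 with an SE of 0.14. For Rpl5 the groups overlapped. Rpl9, a large subunit protein near the base of the stalk, had 24.1, 23.9 and 27.0 CPM in KO libraries and 41.7, 36.3 and 28.2 CPM in WT libraries (log2 fold change -0.50, SE 0.28). In Rpl11 and Rpl9 the highest KO library and the lowest WT library, both replicate 3, differed by less than 1 count (1.27 to 1.59 CPM). The unadjusted p was 0.0802 for Rpl11, 0.0812 for Rpl19, 0.093 for Rpl9 and 0.149 for Rpl3, and all had an adjusted p of 0.987 in edgeR's test.

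Rpl23a averaged 409 ± 52.9 CPM in KO and 388 ± 75.6 CPM in WT (SD, n = 3 each), and the log2 fold change was 0.07 with an SE of 0.16. Rps6, the small subunit protein that S6 kinase phosphorylates, had 22.8, 19.4 and 39.8 CPM in KO libraries and 44.7, 31.7 and 29.6 CPM in WT libraries, with a log2 fold change of -0.39 and an SE of 0.32. Rps27a, made as a fusion with ubiquitin, had a log2 fold change of 0.34 with an SE of 0.30. Other members with positive log2 fold changes above 0.2 were Rps12 (0.45), Rpl29 (0.29) and Rpl13a (0.24). Members with log2 fold changes of -0.30 or below were Rps14 (-0.45), Rpl35 (-0.43), Rpl21 (-0.42), Rpl7a (-0.40), Rpl36 (-0.36), Rpl24 (-0.32), Rpl22, Rpl23 and Rpl41 (-0.30 each). In all of these the groups overlapped. Small values, between -0.18 and 0.14, were those of Rpl4, Rpl8, Rpl13, Rpl17, Rpl27a, Rpl28, Rpl31, Rps2, Rps3, Rps7, Rps15, Rps15a, Rps23, Rps24 and Rps28, and Rps25 had 0.12 with an SE of 0.22.

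The 40 members that did not pass the filter had mean counts of 0 to 8.67, and their folds are not given. Rps18 and Rps19, both of the small subunit, stood at the top of that range, with means of 8.67 and 8.5 counts. The untested genes together summed to 286.1, 239.3 and 237 CPM in KO libraries and 262.3, 257 and 243.8 CPM in WT libraries, and the groups overlapped.

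**Figure D4:**
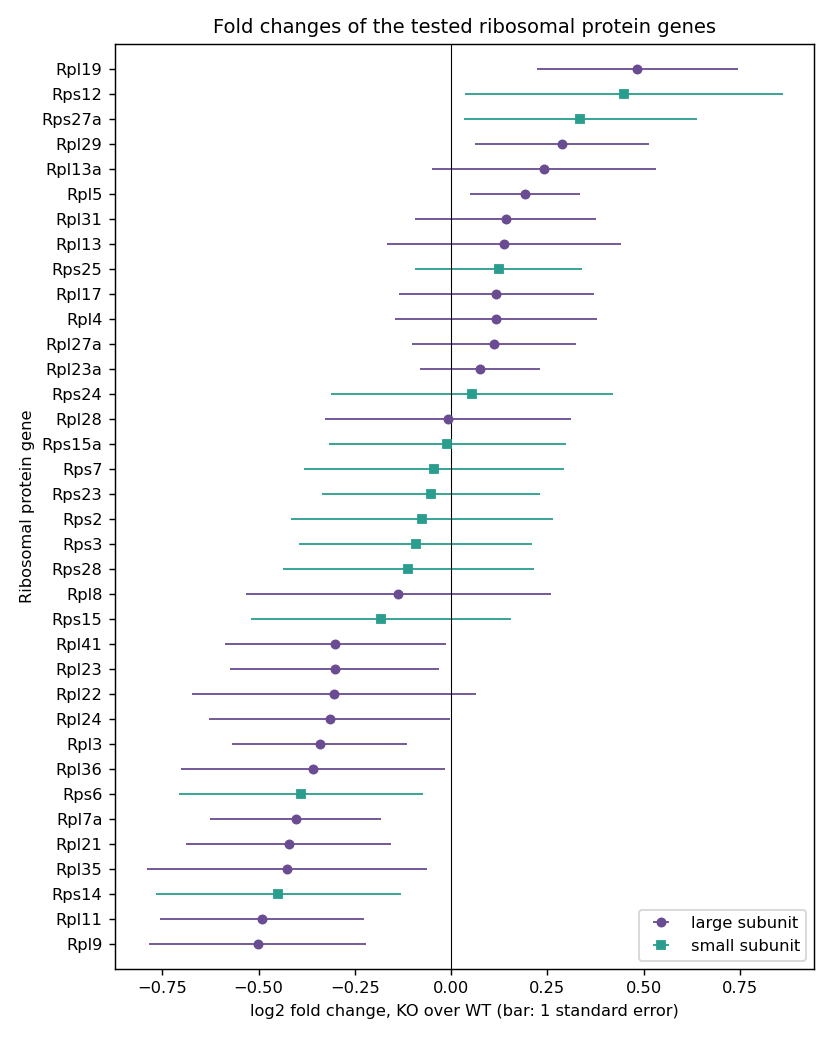
Log2 fold change, KO over WT, of 36 tested ribosomal protein genes with a bar of 1 standard error, large subunit genes as violet circles and small subunit genes as green squares. Values run between -0.50 (Rpl9) and 0.48 (Rpl19), and no gene passed an adjusted p under 0.05.

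Large and small subunit genes were then compared as sums. Large subunit genes summed to 1928, 1801 and 1699 CPM in KO libraries and 1775, 1841 and 1758 CPM in WT libraries, a log2 ratio (KO over WT) of the means of 0.01. Small subunit genes summed to 782.3, 662.6 and 679.2 CPM in KO libraries and 645.3, 672.6 and 699.1 CPM in WT libraries, a log2 ratio of 0.08. In both the groups overlapped, and KO replicate 1 was the highest library. Among tested members, 10 of 23 large subunit genes and 5 of 15 small subunit genes had a positive log2 fold change, and the medians were -0.14 and -0.05.

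The ratio of large to small subunit counts, which needs no library size, was 2.46, 2.72 and 2.50 in KO libraries and 2.75, 2.74 and 2.51 in WT libraries. The means were 2.56 ± 0.137 in KO and 2.67 ± 0.133 in WT (SD, n = 3 each), a difference smaller than the spread. With Rpl23a and Rpl5 left out it was 1.48, 1.38 and 1.5 in KO libraries and 1.71, 1.56 and 1.56 in WT libraries, so that all KO libraries were lower, and no test was made of it. Over the genes reported here by name alone, also without Rpl23a and Rpl5, the ratio was 2.08, 1.85 and 2.05 in KO libraries and 2.06, 2.03 and 1.99 in WT libraries, and the groups overlapped.

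Rpl23a and Rpl5 together had 769.6, 883.9 and 677.7 CPM in KO libraries and 669.2, 793.6 and 663.8 CPM in WT libraries (log2 ratio 0.13). The other 76 genes summed to 1941, 1579 and 1701 CPM in KO libraries and 1751, 1720 and 1793 CPM in WT libraries (log2 ratio -0.01). KO replicate 2 was highest for the high pair and lowest for the other genes. All 78 genes summed to 2517 ± 172 CPM in KO and 2464 ± 47.0 CPM in WT (SD, n = 3 each), a log2 ratio of 0.03.

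**Figure D5:**
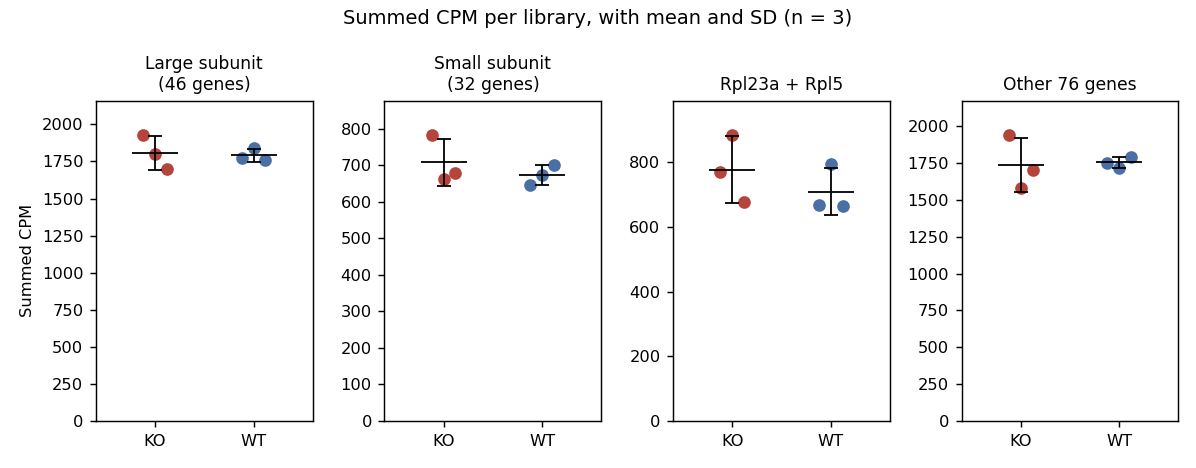
Summed CPM per library of the large subunit genes, the small subunit genes, Rpl23a with Rpl5, and the other 76 genes, with KO left and WT right, points for libraries and bars for the mean and SD (n = 3 each). The groups overlap in all 4 panels, and the KO libraries spread more widely than the WT libraries.

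Other genes of translation were read from the same test, with 0 genes called in any list and only Eif5 and Rpl7l1 at an unadjusted p under 0.05 in the 5 lists described. Of 77 mitochondrial ribosomal protein genes 18 were tested, with 12 positive and 6 negative log2 fold changes and a median of 0.06. Mrps25, a mitochondrial small subunit protein, had a level of 6645 ± 247 CPM in KO and 6128 ± 256 CPM in WT (SD, n = 3 each), more than the 78 cytosolic genes together, and it shares 4590 bases of exon with Nr2c2 on the other strand. Of 41 elongation and initiation factor genes 24 were tested, with 7 positive and 17 negative log2 fold changes and a median of -0.12. Eif5, the factor that triggers GTP hydrolysis at the start codon, had 94, 89 and 85 counts in KO libraries and 126, 126 and 121 in WT libraries. Its log2 fold change was -0.51 with an SE of 0.16 (edgeR's adjusted p = 0.917), and all KO libraries were lower. Eef2, which moves the ribosome along the mRNA, had a log2 fold change of -0.47 with an SE of 0.26.

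Of the near relatives and fusions outside the symbol rule, 9 were in the tables and 3 were tested. Rpl7l1, a relative of Rpl7, had 14, 17 and 16 counts in KO libraries and 23, 24 and 30 in WT libraries (log2 fold change -0.74, SE 0.29, edgeR's adjusted p = 0.987). Fau, a fusion that carries a ribosomal protein, had a log2 fold change of -0.07 with an SE of 0.31. Of 30 ribosome biogenesis genes 13 were tested, with 9 positive and 4 negative values and a median of 0.03, and the lowest p belonged to Nolc1 (-0.72, SE 0.42) and Dkc1 (-0.34, SE 0.22). Of 10 genes of growth signalling to translation 5 were tested, with 2 positive and 3 negative values and a median of -0.20. Tsc1 and Tsc2, which together restrain mTOR, had log2 fold changes of -0.74 (SE 0.39) and 0.14 (SE 0.13). None of the 7 ribosomal protein pseudogenes with a symbol in the tables had enough counts, and 5 of them had none.

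The authors' deposited tables of their own comparisons list all 78 members, and that from DESeq gives values for 76 of them (not for Rpl26 and Rpl30). A single p under 0.05 among the members was found in each authors' deposited table. The share of all genes with a p under 0.05 was 1.86% in the authors' deposited table from DESeq and 1.90% in that from edgeR.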

How the data were processed

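RNA of the Purkinje neuron and molecular layers was sequenced from 3 KO and 3 WT mice as single reads of 50 bases after a TruSeq mRNA preparation, per the labels' protocols. The submitters' processing notes name TopHat, HTSeq 0.9.1, DESeq, edgeR and the build GRCm38 (mm10), but not the kit's strandedness, the counting strand or the annotation. The authors deposited whole-number counts per gene symbol for each library, in which 5 rows that name no gene were left out of library sizes (98.8% of uniquely aligned reads fell in no gene in each library). The authors also deposited tables with normalised mean signal, a ratio (fold change), a log2 ratio and p-values, used here for description.

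The test on counts was that of edgeR 4.0.16 (R 4.3.3; quasi-likelihood test, TMM factors of 0.954 to 1.04, filterByExpr with a minimum count of 10, Benjamini-Hochberg adjustment over all genes tested, called under 0.05), with all 6 libraries and no covariate. The SE is the one implied by the F statistic. The script was tested on simulated data. DESeq2 1.42.0 and limma 3.58.1 (voom), other factors and filters, and leaving out libraries were alternatives. Exons, opposite-strand overlaps of at least 50 bases and transcripts came from GENCODE M21, to which 95.7% of symbols matched. Shared words were sought as exact matches in annotated transcripts, not in the genome, which was not used here. The members, gene lists and the rule for named genes (every tested member, the 10 of highest count, the 3 of lowest p per direction, partners of high-count members, paralogues and the 2 lowest p of each other list) were chosen with earlier results of these data known. Library pairs differed by more than sampling noise (chi-square per degree of freedom 2.03 to 3.83), so all were kept. p-values measure the spread between these 6 libraries. Some genes that enter the counts and sums are not reported here by name and are not drawn.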

Additional observations from a re-analysis of the deposited data

How the results depend on the processing

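No ribosomal protein gene was called under any of the 18 alternatives, and the lowest adjusted p of a member named here was 0.904. Over all genes edgeR called 6 without the filter on low counts, 0 to 1 when single replicates were left out (1 without WT replicate 3), and 1 with KO replicate 3 and WT replicate 3 both left out, the libraries with Y-linked counts (chosen after seeing the data). The share of member counts in members with a partner was 37.0% at a minimum of 200 shared bases, against 48.0% at 50. The labels give no pairing of KO with WT libraries, so the numbers were not taken as pairs. Correlations of same-numbered libraries were 0.14, 0.0763 and 0.119, all positive, and do not settle whether these libraries belong together. The chi-square values per degree of freedom between same-numbered libraries (2.46, 2.03 and 2.13) were the 3 lowest of all 15 library pairs, a hint from the data and not from the design. With the replicate number as a block 0 genes were called and 287 had an unadjusted p under 0.05, against 246 without it.

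Of 912 recomputed log2 fold changes of named genes 867 kept their direction and 45, in 21 genes, reversed; the cause was not tested. Rpl28 was 0 with RLE factors, 0.011 without the filter and 0.016 in DESeq2, and Rps15a 0.006 without the filter and 0.004 in DESeq2. With those 2 libraries left out, values were -0.069 in Rpl17, 0.045 in Rpl8, 0.035 in Rps15, 0.017 in Rps15a, 0.028 in Fam69a, -0.29 in Cnp and 0.264 in Mbp. Leaving out single replicates gave -0.058 to 0.459 for Rpl13, -0.004 to 0.234 for Rpl27a, -0.004 to 0.284 for Rpl31, -0.259 to 0.23 for Rps23, -0.108 to 0.225 for Rps25, -0.282 to 0.141 for Rps28, -0.034 to 0.243 for Rpl23a, -0.146 to 0.097 for Rpl28, -0.416 to 0.224 for Rps15a, -0.25 to 0.06 for Rps2, -0.262 to 0.102 for Rps7, -0.354 to 0.119 for Fau, -0.445 to 0.056 for Rpl8, -0.302 to 0.30 for Rps24, -0.256 to 0.413 for Cnp, -0.089 to 0.277 for Rpl4, -0.241 to 0.094 for Rps3, -0.492 to 0.117 for Rps15, -0.121 to 0.035 for Fam69a and -0.27 to 0.205 for Mbp. Members at an unadjusted p under 0.05 numbered 6 of 40 (15%, against 5.01% of all genes) without KO replicate 3 and 4 of 39 (10.3%, against 4.66%) without the libraries with Y-linked counts. They numbered 2 of 41 without WT replicate 3 (4.88%, against 5.05% of all genes). Without KO replicate 2 they numbered 1 of 42 (2.38%, against 4.95%), and without WT replicate 2 also 1 of 42 (2.38%, against 4.14%). They numbered 0 without KO replicate 1 (against 4.92% of all genes) and 0 without WT replicate 1 (against 3.67%). The 40 untested members had too few counts for the filter; the parts of depth, counting strand and reads with several alignments in this were not tested.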
